A study of Rattus norvegicus with 18 samples.

Results

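The genes described here were those of potassium channels and their auxiliary subunits, taken as every array probe whose gene symbol starts with Kcn, apart from 1 inward rectifier gene that is not analysed here. They were 87 of 22523 probes on the array and stood for 83 of 21563 genes. RNA came from primary cortical neurons of embryonic rats, infected 1 day after plating for 6 hours with a lentivirus that carried an shRNA in the pLKO.1 vector, and was hybridised to Illumina RatRef-12 bead arrays, which read 1 colour. Neurons infected with virus for CHD5 shRNA were compared with neurons infected with virus for a scrambled control shRNA at 5, 9 and 12 days of culture. Each of the 6 groups held 3 arrays with the replicate letters a, b and c, so that 18 arrays were used.

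CHD5 is a chromatin remodelling protein expressed in neurons. The labels name 1 virus for CHD5, and 0 probes on the array were annotated to Chd5, so neither the depletion itself nor a second shRNA could be examined. All infected cells carried the lentiviral vector, controls included. Nothing in the labels says that the letters are separate cultures, and p-values therefore measured only the spread between these samples, which may be technical.

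Potassium channels let potassium ions cross the membrane along their gradient, and so set the resting potential, end action potentials and limit repetitive firing. Voltage-gated channels (Kv) are assembled from alpha subunits that form the pore, and their gating and transport depend on auxiliary subunits. Calcium-activated channels open after calcium entry, while inward rectifiers and K2P leak channels act near the resting potential. In cortical neurons the set of channels changes as the cells mature in culture, and glial cells of the same culture express channels of their own.

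Values are given as log2 levels, which are the log2 signals of an array scaled to the same mean and spread on all arrays, and as differences of their group means. A probe was counted as detected on an array at a detection p-value of at most 0.02, and was tested if it was detected on at least 1 of the 18 arrays. A difference was called, and is written as a rise or a fall, where the limma p adjusted by Benjamini-Hochberg over all 11079 tested probes was under 0.05. Levels of different probes were not compared, because probes differ in brightness for reasons other than the abundance of their RNA.

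Mean signals ran from 400 to 789 and 8360 to 9931 probes were detected, but day 9 control b was dimmer than the rest. Its mean signal was 135 and it detected 7047 probes, 24 of them potassium channel probes against 26 to 37 on the other arrays, and its highest correlation with another array was 0.955. After scaling, its lowest detected level was 7.32, against 6.43 to 6.83 on the other arrays, so undetected probes could lie high on it. Results at day 9 include it unless stated. They are given without it as well for Kcnq5, Kcnh1, the astrocyte sum and the median of the tested potassium channel probes. The culture held detectable neuronal markers (8 of 10 listed genes tested), markers of astrocytes (9 of 11) and of the oligodendrocyte lineage (9 of 11). The astrocyte markers rose in all 9 tested genes from day 5 to day 12 in control cultures (median log2 difference 2.39), and 6 of the 9 were lower after CHD5 shRNA at day 9 and 5 at day 12, with 0 called by limma at day 5 (1 at an unadjusted p under 0.05). Their summed level was 47594 to 51740 on the day 12 control arrays and 26917 to 28417 on the day 12 CHD5 shRNA arrays, 27765 to 121459 and 16900 to 21664 at day 9 (up to 34559 in controls without replicate b), and 8267 to 8705 and 6519 to 6891 at day 5. Such a sum of unlogged levels follows the brightest probes, so it does not show a shared size of change. Of the genes summed, Apoe, Gfap, Slc1a3 and Sox9 were not called at day 12. Of the neuronal markers 1 (Tubb3) was called at days 9 and 12, and it was higher after CHD5 shRNA. At day 12, 2 of 9 tested genes of the oligodendrocyte lineage and 2 of 7 interneuron genes (Npy and Calb2) were lower. So were 2 of 4 fibroblast genes, Dcn and Lum, of which Lum was detected on 1 array. The other 2, Col1a2 and Fn1, differed by 0.21 and 0.22 and were not called. Over all tested probes 2.25% were called lower at day 9 and 3.24% at day 12. At day 12, 0 of 4 excitatory neuron genes were called (2 at an unadjusted p under 0.05). At day 9, 1 of the 4 excitatory neuron genes was called, Slc17a6, which was higher after CHD5 shRNA by 0.58 (limma adjusted p = 0.0354). On both days 2 of the 4 differences were above 0 and 2 below. Slc17a7 differed by -0.15 at day 9. At day 12 Slc17a6 differed by 0.53 and Slc17a7 by -0.33 (limma adjusted p = 0.0541 and 0.0968). Of microglial markers 2 of 8 listed genes were tested, and of endothelial and pericyte markers 2 of 7. Csf1r, Pecam1, Kdr and Pdgfrb had no probe under their symbol, so they were not measured. Cldn5 was detected on 16 arrays and Flt1 on 1, and the microglial genes Cd68 and Aif1 on 3 arrays and 1 array. The part of this difference in cell makeup in the results that follow was not tested. In RNA of a whole culture, fewer cells of a type and less RNA per cell cannot be told apart.

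Of the 87 probes, 45 were detected on at least 1 array (51.7%, against 49.2% of all probes) and 42 were not. The 45 tested probes stood for 42 genes. Detection was uneven, with 15 probes detected on all 18 arrays, 17 on 6 to 17 arrays and 13 on 5 arrays or fewer, of which 6 were detected on 1 array. All 3 Kv4 probes (Kcnd1, Kcnd2 and Kcnd3), the pore subunits of the rapidly inactivating A-type current, were detected on every array. All 4 genes of the Kv channel-interacting proteins, the calcium-binding auxiliary subunits of Kv4 channels, were detected on some arrays, and so were all 3 Kv3 genes, whose channels support fast firing. By contrast, 3 of 8 Kv1 genes, 1 of 4 Kv7 genes, 2 of 8 genes of the ether-a-go-go (EAG) family, 6 of 13 inward rectifier genes and 5 of 9 K2P genes were detected. The probes for Kcnma1, the pore of the large-conductance calcium-activated (BK) channel, and for Kcnq3, a subunit of the neuronal M-current, were not detected on any array, which sets a limit on the probes and does not show that the RNAs were missing.

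The question put to the shRNA arrays was which genes depend on CHD5 as neurons mature. Kcnip2, Kcnn2, Kcnq5 and Kcna6 were the potassium channel genes called after CHD5 shRNA. At day 5, 0 of the 45 tested probes were called by limma (0.171% of all tested probes were), and 3 had an unadjusted p under 0.05, against 5.66% of all. The criteria of the study also passed 0 at that day. At day 9, 1 probe was called (Kcnip2, lower), against 5.89% of all tested probes called in all and 2.25% called lower. At day 12, 4 probes were called, against 5.47% of all. They were Kcnip2 and Kcnn2 lower (3.24% of all probes were) and Kcnq5 and Kcna6 higher (2.23% of all). Out of 45 probes these counts were of the order of the shares over all probes, and they do not set potassium channel genes apart. Groups of 3 arrays did not overlap for 9 of the 45 probes at day 5, 9 at day 9 and 11 at day 12, against 11%, 20.6% and 38.2% of all tested probes. An exact permutation test of 3 against 3 arrays, two-sided, cannot go below p = 0.1 for any single gene, so calls rested on the fit across all probes.

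Kcnip2 encodes KChIP2, one of the calcium-binding subunits that bring Kv4 channels to the membrane. Its probe starts at base 2110 of its annotated transcript, and the first 30 bases of the 50-base probe are shown, as for the other probes, so that the part of the transcript behind the value can be found.
Kcnip2 probe: tagggacggtaggctccaggtccaacctct
The log2 levels of Kcnip2 in control cultures were 6.83, 6.68 and 6.88 on day 5, then 7.39, 7.34 and 7.19 on day 9, then 7.74, 7.43 and 7.54 on day 12. After CHD5 shRNA the day 5 arrays gave 6.67, 6.44 and 6.71, those of day 9 gave 6.92, 6.91 and 6.97, and those of day 12 gave 7.02, 6.92 and 7.05. All CHD5 shRNA arrays lay below all control arrays at days 9 and 12, while the groups overlapped at day 5, when the probe was detected on 1 of 3 CHD5 shRNA arrays. The difference was -0.19 (SE 0.10, limma adjusted p = 0.954) at day 5, -0.38 (SE 0.10, adjusted p = 0.038) at day 9 and -0.58 (SE 0.10, 95% confidence interval -0.79 to -0.36, limma adjusted p = 0.00238) at day 12. The change of the difference from day 5 to day 12 was -0.38 and was not called (limma adjusted p = 0.501). The fall at day 12 was called in 27 of 28 alternatives, the other being median centring. The fall at day 9 was called in 15 of 28 and was lost with the removal of day 9 control a, of any day 9 or day 12 CHD5 shRNA array, or of day 12 control c (differences -0.40 to -0.34, limma adjusted p = 0.0508 to 0.13). It was also lost under median centring, no detection filter, array weights, only the arrays of the contrast, and the mean of both measurements of replicate a. For this probe the second measurement of day 9 control a differed from the first by -0.34.

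Kcnn2 encodes an SK channel, which is opened by calcium through bound calmodulin and carries part of the current after an action potential. Control log2 levels were 7.09, 6.96 and 6.79 on day 5, then 7.13, 7.23 and 7.26 on day 9, then 7.47, 7.48 and 7.49 on day 12. CHD5 shRNA levels were 6.88, 6.95 and 6.91, then 6.97, 6.99 and 6.87, then 7.01, 7.24 and 7.10. The 3 day 12 control arrays lay close together (7.47 to 7.49) and above every other array of the probe. The difference was -0.03 at day 5, -0.26 at day 9 without overlap (SE 0.09, limma adjusted p = 0.105) and -0.36 at day 12 (SE 0.09, adjusted p = 0.0255). The probe was not detected on day 9 control b (7.23). Its second measurement on day 9 control a differed from the first by 0.44, and with the mean of both measurements the day 9 difference was called. The call at day 12 was lost without any 1 of the 3 control arrays, without CHD5 shRNA a or c (differences -0.37 to -0.31, limma adjusted p = 0.08 to 0.152), and in 3 other alternatives. Of the other SK genes, Kcnn1 and Kcnn3 were detected on 2 arrays and 1 array, and Kcnn4 on none.

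Kcnq5 encodes a Kv7 subunit of the slowly opening M-current, which holds back repetitive firing. It had 1 probe that was detected on all 18 arrays, which starts at base 3190 of its transcript, and 1 that was detected on 4 arrays, which starts at base 421.
Kcnq5 probe at base 3190: caagccaacagtcgctgctgatgctatggg
Kcnq5 probe at base 421: aagccgctctcctacaccagcagccagagc
On the first of these, control log2 levels were 10.70, 10.63 and 10.57 on day 5, then 9.77, 8.97 and 9.62 on day 9, then 8.74, 8.81 and 8.88 on day 12. CHD5 shRNA levels were 10.48, 10.58 and 10.49, then 9.84, 9.93 and 10.07, then 9.67, 9.43 and 9.36. Levels went down with time in culture under both viruses, and the CHD5 shRNA arrays lay above all control arrays at days 9 and 12. The difference was -0.12 (SE 0.15) at day 5, 0.49 (SE 0.15, limma adjusted p = 0.0625) at day 9 and 0.68 (SE 0.15, 95% confidence interval 0.36 to 0.99, adjusted p = 0.0114) at day 12. Without day 9 control b the day 9 difference was 0.255 (limma adjusted p = 0.114), and without that of replicate a it was 0.647 (adjusted p = 0.0105). The rise at day 12 lost its call without control a or CHD5 shRNA a (0.58 to 0.64, limma adjusted p = 0.0624 to 0.076), with median centring and with no detection filter. The probe at base 421 was not detected at day 12, where its levels of 6.22 to 6.43 in control and 6.41 to 6.46 in CHD5 shRNA arrays differed by 0.12 (limma adjusted p = 0.801), so it gives no second measurement of the rise.

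Kcna6 encodes a Kv1 pore subunit, of the family that forms low-threshold delayed rectifier currents at axons.
Kcna6 probe, from base 4440: gagctgcattcggcctgctctaactgctaa
Control log2 levels at day 12 were 6.54, 6.56 and 6.61, none of them detected, and CHD5 shRNA levels were 6.97, 7.11 and 6.86, all detected. At day 5 the range was 6.62 to 6.75 in control and 6.64 to 6.79 in CHD5 shRNA arrays. At day 9 it was 6.64 to 6.97 in control and 6.60 to 6.98 in CHD5 shRNA arrays. The control level of 6.97 was that of day 9 control b, where the probe was not detected, and the others were 6.64 and 6.70. The groups were thus apart at day 12 alone, and overlapped on both earlier days. The day 12 difference of 0.41 (SE 0.11, limma adjusted p = 0.0357) gave a level at least 1.18-fold higher, set against the lowest detected level of the control arrays. The call was lost in 9 of 28 alternatives, among them the removal of any 1 of the 6 day 12 arrays or of day 5 CHD5 shRNA c (0.35 to 0.47, limma adjusted p = 0.0508 to 0.192). The other tested Kv1 probes, Kcna4 and Kcna10, were detected on 1 array each, and those for Kcna1, Kcna2, Kcna3, Kcna5, Kcna7 and a further Kcna10 probe on none.

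**Figure D1:**
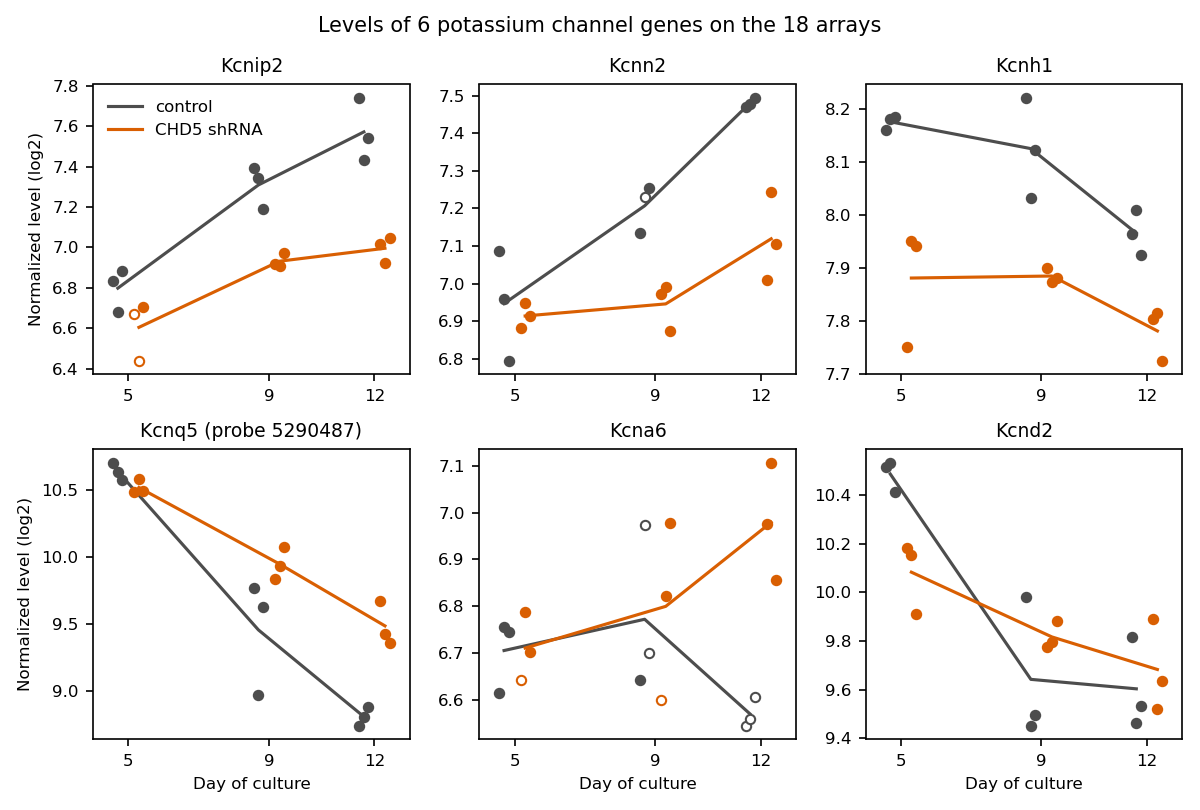
Log2 level of Kcnip2, Kcnn2, Kcnh1, Kcnq5 (probe at base 3190), Kcna6 and Kcnd2 on each array against the day of culture (days 5, 9 and 12). Each point is an array, filled where the probe was detected and open where it was not, and lines join the means of the 3 control or 3 CHD5 shRNA arrays. The groups separate at day 12 for Kcnip2 (control 7.43 to 7.74, CHD5 shRNA 6.92 to 7.05) and for Kcnq5 (8.74 to 8.88 and 9.36 to 9.67). They also separate then for Kcnn2, Kcna6 and Kcnh1, of which Kcnh1 was not called, and overlap for Kcnd2.

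Kcnip2 and Kcnq5 had the largest called fall and rise at day 12, so the 250 bases before the RefSeq start of each are printed, in the build GRCr8, where both genes lie on the minus strand. Capitals mark matches, on either strand, to any of 4 promoter motifs. The motif of the GC box was searched as GGGCGG. The TATA box was searched as the letters TATAAA. That of the CCAAT box reads as written in its name, or as ATTGG on the other strand. The cyclic AMP response element was searched as TGACGTCA, and no motif contains another.
Kcnip2, chr1:254613899-254614148: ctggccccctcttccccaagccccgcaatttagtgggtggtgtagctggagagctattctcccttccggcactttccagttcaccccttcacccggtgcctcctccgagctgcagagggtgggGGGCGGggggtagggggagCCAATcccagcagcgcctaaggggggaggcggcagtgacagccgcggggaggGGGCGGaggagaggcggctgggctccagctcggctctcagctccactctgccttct
Kcnq5, chr9:31891282-31891531: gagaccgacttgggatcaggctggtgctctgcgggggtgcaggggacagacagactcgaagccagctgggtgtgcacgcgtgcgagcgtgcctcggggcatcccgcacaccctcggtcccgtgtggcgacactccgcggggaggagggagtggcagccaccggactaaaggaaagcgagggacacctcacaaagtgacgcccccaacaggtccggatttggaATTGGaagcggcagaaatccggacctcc
The Kcnip2 stretch held 2 GC boxes and 1 CCAAT box, with 68% of its bases G or C, and the Kcnq5 stretch held 1 CCAAT box, with 65.2%. Over 33469 promoters of this length, 30.5% held a GC box, 34% a CCAAT box, 12.9% a TATA box and 1.59% a cyclic AMP response element. Over the 61 starts matched to 55 of the 83 potassium channel genes the shares were 45.9%, 26.2%, 3.28% and 0%. A match describes the letters alone, and no binding was measured.

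The remaining Kv pore subunits were not called after CHD5 shRNA on any day. Kcnh1, an EAG family channel, had CHD5 shRNA arrays below all control arrays on each of the 3 days. Its control levels were 8.16, 8.18 and 8.19 on day 5, then 8.22, 8.03 and 8.12 on day 9, then 7.96, 8.01 and 7.92 on day 12. Its CHD5 shRNA levels were 7.75, 7.95 and 7.94, then 7.90, 7.87 and 7.88, then 7.80, 7.82 and 7.72. The differences of -0.30, -0.24 and -0.18 (SE 0.08 each) had limma adjusted p = 0.3, 0.101 and 0.282. Without day 9 control b, the limma adjusted p at day 5 was 0.0449 and that at day 9 was 0.0272. Kcnd2, the Kv4 subunit of the dendritic A-type current, was 10.51, 10.53 and 10.41 in control and 10.18, 10.15 and 9.91 in CHD5 shRNA arrays at day 5, without overlap, but its difference of -0.40 was not called (limma adjusted p = 0.464). At day 12 its levels overlapped and differed by 0.08.

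The 3 probes of Kcnc2, a Kv3 subunit, were annotated to transcript variants a and b and differed by -0.07, 0.09 and -0.10 at day 12, with no call on any day. Kcnv1, a subunit that forms no channel alone, was lower without overlap at day 9 (-0.31, limma adjusted p = 0.114), but was detected on 1 array in all, which was of day 5.

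Among the other auxiliary subunits, Kcnip1, which encodes another KChIP, differed by -0.19 at day 9 and -0.20 at day 12 (limma adjusted p = 0.287 and 0.335). Its highest control level of day 9, 7.30, was that of control b, where it was not detected. Kcnab1 and Kcnab3, Kv beta subunits, differed by -0.06 and 0.02 at day 12. Kcnmb2, a beta subunit that makes BK channels inactivate, was higher without overlap at day 9 by 0.20 (limma adjusted p = 0.244). Kcne4, of the MinK family, and Kcnt2, a sodium-activated channel, differed by 0.03 and -0.02 at day 12. None of these values passed the test.

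The smallest p among inward rectifiers was that of Kcnj12, a strong rectifier, which was detected on 2 of 3 control and 0 of 3 CHD5 shRNA arrays at day 9, so that its size there is limited by the background. Its day 9 arrays lay lower after CHD5 shRNA without overlap, and the difference was not called (limma adjusted p = 0.14). The highest of its day 9 control levels, 7.04, was that of control b, where it was not detected, and the others were 6.77 and 6.76. Among K2P leak channels the smallest p was that of Kcnk2 (TREK channel, opened by stretch and lipids). Its day 12 levels were 7.82, 8.18 and 8.04 in control and 8.47, 8.30 and 8.32 in CHD5 shRNA arrays, without overlap, and the difference of 0.35 (SE 0.14) had limma adjusted p = 0.196. The 22 tested probes that were neither called after CHD5 shRNA, nor leading in control cultures, nor first in their class ranged from -0.272 to 0.222 at day 5, from -0.358 to 0.269 at day 9 and from -0.192 to 0.176 at day 12, with a smallest limma adjusted p of 0.237.

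**Figure D2:**
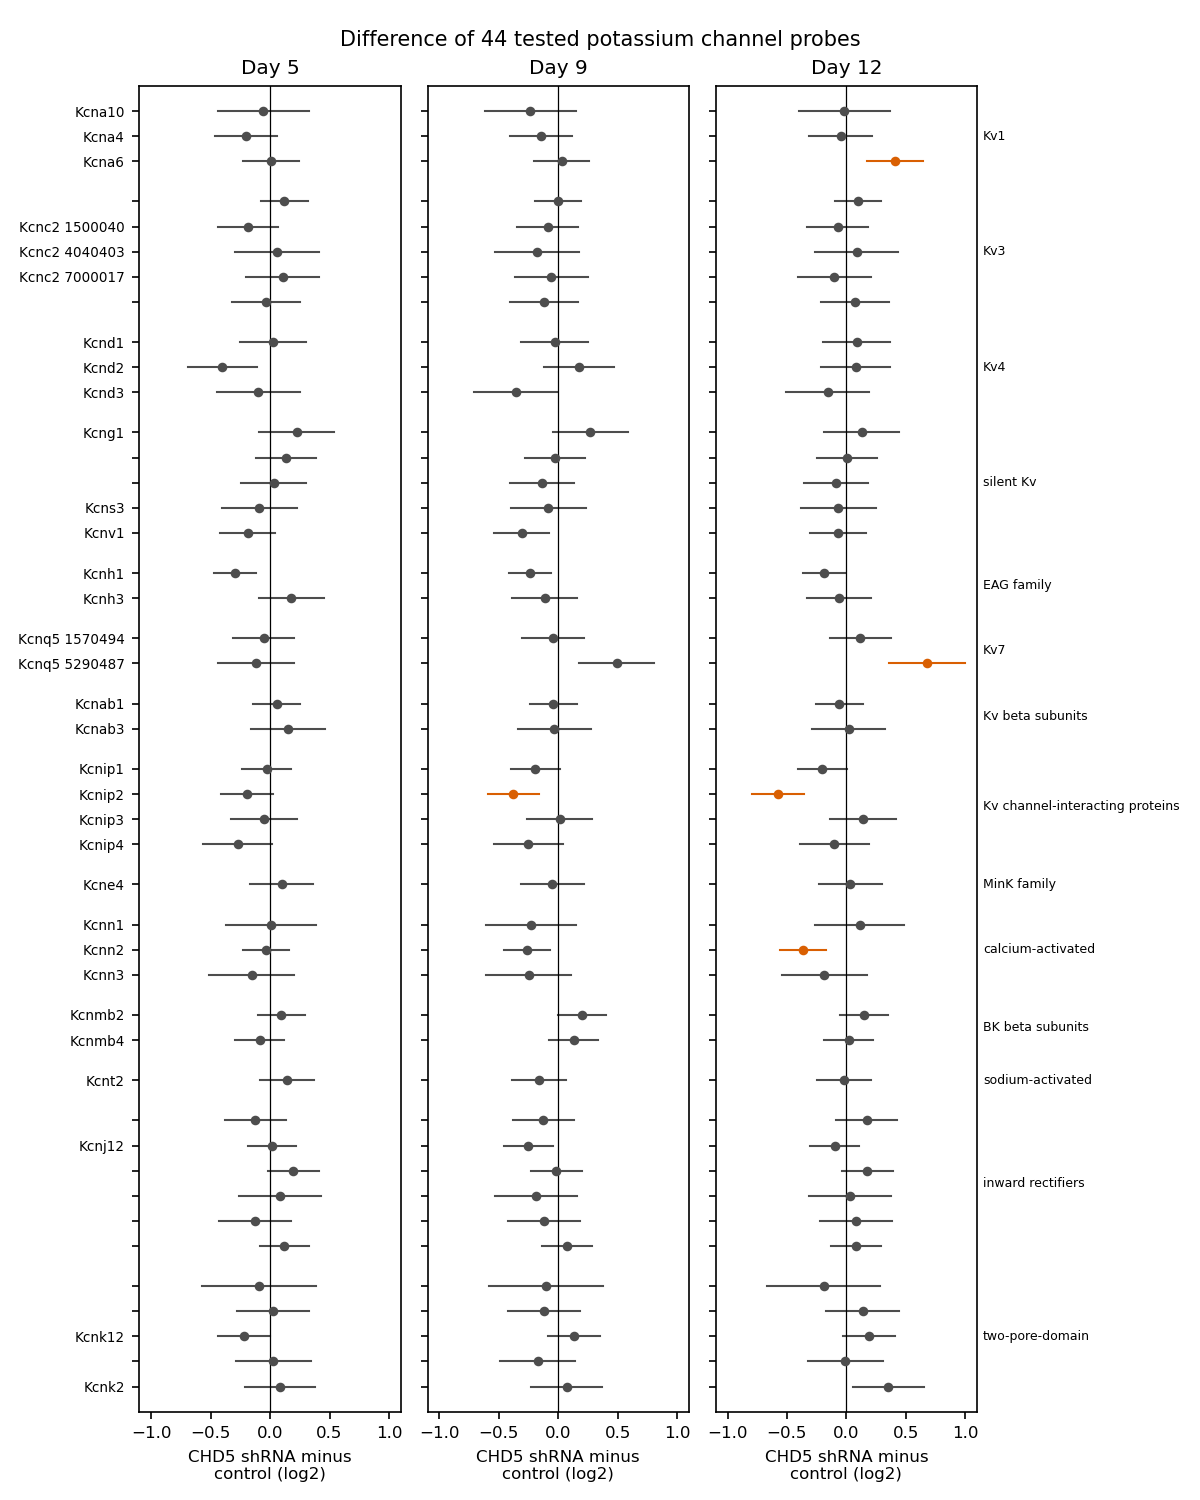
Log2 difference between CHD5 shRNA and control arrays (n = 3 each) for 44 of the 45 tested probes at days 5, 9 and 12, ordered by channel class, with the genes named in the text labelled. Points are differences, bars are 95% confidence intervals and orange marks differences called by limma, which are Kcnip2 at day 9 (-0.38) and Kcnip2, Kcnn2, Kcnq5 and Kcna6 at day 12 (-0.58 to 0.68).

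As a group the 45 probes were centred near 0 at day 5 (median difference -0.0275, against 0.00696 over all tested probes) and at day 12 (0.0191 against 0.00812). At day 9 the median was -0.101 with 34 of 45 probes below 0, against -0.0168 over all probes. That shift rested on 1 array: without day 9 control b the median was 0.0537 with 16 of 45 below 0, against 0.0336 over all. On the 15 probes detected on every array the day 9 median was -0.00093 with that array kept.

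The second question was how these genes changed with time in culture. In control cultures 8 of the 45 probes were called between day 5 and day 9, against 22% of all tested probes. Of these 5 were higher (9.18% of all probes were) and 3 lower (12.8% of all). Between day 5 and day 12, 14 were called, against 23.6% of all, with 8 higher (11.1% of all) and 6 lower (12.5% of all). In CHD5 shRNA cultures 4 were called by day 9, against 9.33% of all, with 3 higher (4.61% of all) and 1 lower (4.72%). By day 12, 8 were called there, against 17% of all, with 6 higher (8.46% of all) and 2 lower (8.56%). From day 9 to day 12, 0 were called by limma in CHD5 shRNA cultures, against 1.37% of all. There, 8 of the 45 had an unadjusted p under 0.05, against 1088 of all 11079 tested probes. Over the same days 2 were called in controls (Kcnq5 by -0.65 and Kcnmb4 by 0.46, with day 9 control b kept), against 4.16% of all. The control arrays of day 12 enter both this comparison and that of CHD5 shRNA with control at day 12, so the differences of the same gene in the 2 comparisons are not independent and are given side by side only.

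The genes that rose from day 5 to day 12 were led by Kcnh3, an EAG family channel of the forebrain. Its control log2 levels were 9.33, 9.55 and 9.60 at day 5 and 10.47, 10.82 and 10.80 at day 12, and its CHD5 shRNA levels were 9.34, 9.85 and 9.83 and then 10.61, 10.67 and 10.61. The rise was 1.20 in controls (SE 0.13, limma adjusted p = 1.41e-06) and 0.96 after CHD5 shRNA (adjusted p = 3.72e-05), without overlap of the days in either.

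Several auxiliary subunits were among these rises, although Kcnmb2 fell. Kcnip1 rose from 6.85, 6.61 and 6.62 to 7.62, 7.62 and 7.41 in controls, by 0.86 (limma adjusted p = 3.41e-06), and by 0.69 after CHD5 shRNA (8.03e-05). Kcnip2 rose by 0.77 in controls (limma adjusted p = 1.8e-05) and by 0.39 after CHD5 shRNA (0.0126). Kcnab1 rose by 0.63 and 0.51, and Kcnmb4, the beta subunit of neuronal BK channels, by 0.42 and 0.54. Thus 2 of the 4 genes of the Kv channel-interacting proteins rose under both viruses, while Kcnip3 and Kcnip4 were not called.

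Among pore subunits Kcng1, a silent Kv subunit that acts only together with other Kv subunits, rose by 0.49 in controls (limma adjusted p = 0.0244). Its control levels of 7.83, 8.11 and 8.68 at day 5 overlapped those of 8.64, 8.75 and 8.70 at day 12. After CHD5 shRNA it differed by 0.395, which was not called. Kcnn2 rose by 0.53 in controls (limma adjusted p = 0.000285), and differed by 0.21 after CHD5 shRNA (0.147). Kcnd1, a Kv4 subunit, rose by 0.41 after CHD5 shRNA (limma adjusted p = 0.0426) and differed by 0.34 in controls (0.0712).

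Falls with time were led by Kcnq5, whose well detected probe fell by 1.83 on the log2 scale in controls (SE 0.15, limma adjusted p = 4.49e-08) and by 1.03 after CHD5 shRNA (adjusted p = 9.01e-05), without overlap of days 5 and 12. The probe at base 421 differed in controls by -0.38 (limma adjusted p = 0.0308) but was not detected on any control array after day 5, so no fold is given. Kcnd2 fell from 10.51, 10.53 and 10.41 to 9.82, 9.46 and 9.53 in controls, by 0.88 (limma adjusted p = 0.000108), most of it by day 9, and differed by -0.40 after CHD5 shRNA (0.056). Of the other Kv4 genes, Kcnd3 was not called.

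Kcnk12, a K2P subunit, had control levels of 7.04, 7.14 and 7.00 at day 5 and of 6.19, 6.51 and 6.32 at day 12, when it was not detected. It was at least 1.24-fold lower at day 12 in controls (limma adjusted p = 4.41e-05) and at least 1.05-fold lower after CHD5 shRNA (adjusted p = 0.0485). The latter call was lost in 15 of 27 alternatives, among them the removal of any 1 of 12 arrays, which include all 6 CHD5 shRNA arrays of days 5 and 12 (differences -0.34 to -0.25, limma adjusted p = 0.0518 to 0.2). Kcnmb2 fell by 0.33 in controls (limma adjusted p = 0.0148) and Kcns3, a silent Kv subunit, by 0.44 (0.0412), the latter a call lost in 13 alternatives. The control levels of Kcns3 at days 5 and 12 overlapped, and its difference of -0.414 after CHD5 shRNA was not called.

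**Figure D3:**
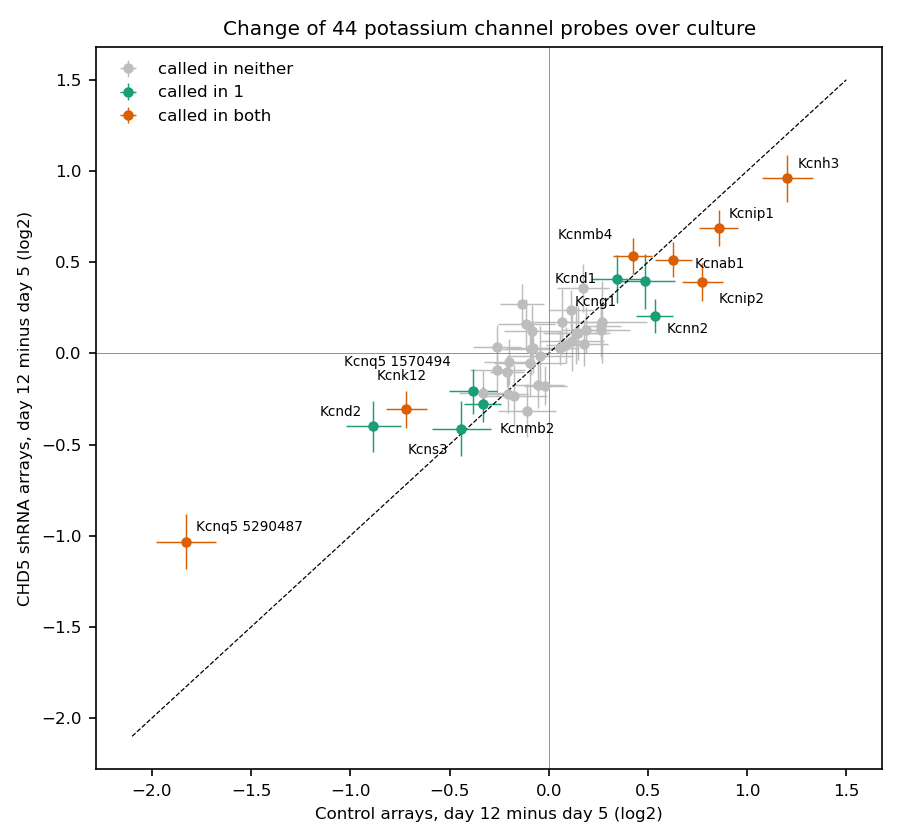
Log2 difference between day 12 and day 5 in CHD5 shRNA cultures (vertical axis) against control cultures (horizontal axis) for 44 of the 45 tested probes. Bars are standard errors and the dashed line marks equal change. Kcnq5 (-1.83 in control, -1.03 after CHD5 shRNA) lies above the line and Kcnip2 (0.77 and 0.39) below it, and both differences between the cultures missed the limit of the interaction test.

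The changes in the control and in the CHD5 shRNA cultures share no arrays. Of the 45 probes, 39 had differences of the same sign, and 7 were called in both, all 7 in the same direction. A further 7 were called in controls alone and 1 (Kcnd1) after CHD5 shRNA alone, which does not show that they differ between the viruses. The same counts were not taken over all tested probes, so they describe the 45 probes without setting them apart. Tested directly as the change of the CHD5 shRNA difference, 0 of the 45 probes were called by limma from day 5 to day 9 (0% of all tested probes were). At an unadjusted p under 0.05 it was 3 of the 45, against 7.3% of all. From day 5 to day 12 it was 0 of the 45 (0.153% of all), and 6 of the 45 at an unadjusted p under 0.05, against 6.75% of all. From day 9 to day 12 it was also 0 (0% of all), with 1 of the 45 at an unadjusted p under 0.05, against 2.36% of all. The smallest adjusted p of these was that of Kcnq5 from day 5 to day 12, with a difference of 0.80 (SE 0.21, 95% confidence interval 0.35 to 1.25, limma adjusted p = 0.166). It was called with quantile normalization, neqc, array weights, only the arrays concerned, or without day 9 control b. The same change was -0.33 for Kcnn2, 0.40 for Kcna6 and 0.48 for Kcnd2 (limma adjusted p = 0.55, 0.518 and 0.569).

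Channels work with partner proteins that place them in the membrane or alter their gating, and 31 such genes without a Kcn symbol were listed, of which 19 were tested on 20 probes. After CHD5 shRNA 0 of the 20 probes were called by limma at day 5 (1 at an unadjusted p under 0.05), 1 at day 9 and 2 at day 12, all higher. Over all tested probes the shares were 0.171%, 5.89% and 5.47%, so that these counts do not set the partner genes apart. Stx1a, the synaptic vesicle fusion protein syntaxin, which also binds Kv channels, had levels of 6.86 to 7.00 in control and 7.22 to 7.51 in CHD5 shRNA arrays at day 9, and of 6.77 to 7.04 and 7.18 to 7.57 at day 12. The rises were 0.47 and 0.54 (limma adjusted p = 0.0256 and 0.00966). Nedd4l, a ubiquitin ligase that removes Kv7 and other channels from the membrane, had levels of 8.37 to 8.52 in control and 8.82 to 8.93 in CHD5 shRNA arrays at day 12, a rise of 0.45 (limma adjusted p = 0.0334), and differed by 0.38 at day 9 (0.0716). Neither gene's groups overlapped on those days. In control cultures 4 of the 20 probes were called from day 5 to day 12, against 23.6% of all, with Abcc8, the sulfonylurea receptor of ATP-sensitive channels, higher by 0.28 and Lgi1, Akap9 and Nedd4l lower, with differences of -0.59, -0.42 and -0.60.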

How the data were processed

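The deposited values were 1 intensity and 1 detection p-value per probe and array. The authors extracted the intensities with GenomeStudio 1.1.1 as mean bead signals, with no normalization and no background subtraction, per the file headers. The deposited p-value sets each probe against negative control beads on the same array. The 6 arrays of replicate a had been measured a second time, and the second measurements entered only an alternative. Over the tested potassium channel probes the median size of the difference between both measurements was 0.0771 on the log2 scale.

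Log2 intensities of the 11079 probes with a detection p of at most 0.02 on at least 1 of 18 arrays were Z-transformed per array, after the normalization of the study, and rescaled by the mean SD. limma 3.58.1 in R 4.3.3 (lmFit and eBayes) was fitted to the 6 groups, with Benjamini-Hochberg adjustment over all tested probes. The number of arrays limits the precision. Where a probe was not detected on any array of a group, the fold is a bound against the lowest detected level of each of those arrays, or the probe's own level if higher. The fit was tested on simulated data with known changes and independent normal noise. These data held no dim array, so they do not show how calls fare with day 9 control b.

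The members, the lists of partner genes and cell markers and the tests were chosen with earlier results of these data known. Named were the members called after CHD5 shRNA, up to 5 leading rises and 5 leading falls in control cultures from day 5 to day 12, the member of each channel class with the smallest p after CHD5 shRNA, and all probes of these genes. Kcnmb4, Kcng1, Kcnd1 and genes named by detection alone lie outside that rule and were chosen after their values were seen. All 83 gene symbols were found in the RefSeq gene names of GRCr8, and promoter sequences are from RefSeq. Values of 2 further members enter the counts but are not reported here.

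The alternatives were quantile normalization, median centring, neqc with an offset of 16, other detection filters, array weights (whose estimation gave a convergence warning), the mean of both measurements, only the arrays of a contrast, the criteria of the study (Z-ratio beyond 1.5, false discovery rate under 0.3, p under 0.05 and a mean signal above the background, which was inferred from the detection p-values), replicate blocks, and leaving out each array in turn. Deviations from the group means were correlated between control and CHD5 shRNA arrays of the same letter. The correlations were 0.168 to 0.377 at day 5, -0.198 to 0.426 at day 9 and 0.014 to 0.153 at day 12. Arrays of unlike letters were not compared, so a pairing by letter was not tested. The slide of each array was not used here, so it was not tested as a batch.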

Additional observations from a re-analysis of the deposited data

How the results depend on the processing

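For the named probes after CHD5 shRNA on each day and from day 5 to day 12, 0 called values reversed under any alternative run. Directions of other called probes and of the other culture comparisons were not followed. The number of potassium channel probes called after CHD5 shRNA at day 9 (1 as reported) was 4 under quantile normalization, 2 under neqc, 3 where a group had to detect the probe on all 3 arrays, 2 with a replicate block within day, and 0 under median centring, no detection filter, array weights, only the arrays of the contrast or the criteria of the study. At day 12 (4 as reported) it was 0 under median centring, 2 with no detection filter and 11 with array weights. Over all tested probes the 606 called at day 12 became 162, 340 and 3575 under these, and the 653 called at day 9 became 65, 307 and 545, and 0 with only the arrays of the contrast or 62 under the criteria of the study. A replicate block changed no other count after CHD5 shRNA by over 1.5 times. In control cultures from day 5 to day 9 (8) it was 3 with array weights and 3 with only the arrays of the contrast. In CHD5 shRNA cultures it was 8 under quantile normalization, 1 under median centring, 9 under neqc, 2 with no detection filter, 14 with array weights and 11 with only the arrays of the contrast at day 9 (4), and 14, 14, 23 and 16 under quantile normalization, neqc, array weights and only the arrays of the contrast at day 12 (8). For the change of the CHD5 shRNA difference from day 5 to day 12 (0) each of the last 4 settings gave 1, which was Kcnq5. The split of called members into higher and lower moved under scaling, from 8 and 6 to 7 and 3 under median centring and 8 and 8 under neqc for controls at day 12, and from 6 and 2 to 8 and 6 under quantile normalization or neqc for CHD5 shRNA cultures. Leaving out 1 array gave 0 to 1 at day 5 (1 being Kcnh1, without day 9 control b), 0 to 2 at day 9 and 1 to 4 at day 12 after CHD5 shRNA (1 without day 12 control a or CHD5 shRNA a). It gave 8 to 25 (25 without day 9 control a) and 10 to 20 in controls at days 9 and 12, 1 to 10 and 5 to 16 in CHD5 shRNA cultures (10, 16 and 20 without day 9 control b), and 0 to 1 for the change of the difference to day 12. Among the values of named members, 81 lost and 78 gained a call under an alternative, 71 that were not called changed direction, and 2929 kept both direction and side of the limit. The causes were not tested. Probes near background limit the size that could be measured for Kcna6, Kcnk12, Kcnj12 and the Kcnq5 probe at base 421.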
